A study of Mus musculus with 10 samples.

Results

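The 7 knockout libraries of 3 members of PRC1.6, a Polycomb complex, were set as one side against the 3 wild type libraries of the same series, all from C57BL/6 mouse embryonic stem cells. All 10 libraries of the series entered, 7 on the knockout side and 3 on the wild type side. A gene was counted in the common response where every knockout library lay strictly above, or every one strictly below, all 3 wild type libraries. Genes that met this in 2 genotypes and failed it in the third were counted separately. The genotypes are given as Mga-/- (3 libraries), L3mbtl2-/- (2 libraries) and Pcgf6-/- (2 libraries), and wild type cells carry none of these deletions according to the labels. The design of the alleles, the number of clones behind each genotype and the culture medium are not given in the sources used here. Replicates may therefore be technical, and each p-value rests on the spread of these libraries alone.

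PRC1.6 is a variant Polycomb complex that joins the histone H2A ubiquitin ligase RING1A or RING1B to sequence-specific DNA-binding partners. MGA, a scaffold that pairs with MAX, brings a basic helix-loop-helix domain that recognises E-boxes and a T-box domain, E2F6 with its DP partner recognises E2F sites, PCGF6 is the subunit that defines the complex, and L3MBTL2 is a malignant brain tumour domain protein that binds chromatin. In embryonic stem cells the complex is known for keeping germ cell and meiotic genes silent.

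Per-gene values were taken as FPKM, reads scaled by gene length and by the reads of the library. This unit was inferred from the steps of the values and the processing tools, since the sources used here do not give the scaling. Depth ranged from 19400000 to 26700000 recovered reads per library. The targeted genes were read first, as a check of the labels. L3mbtl2 was at 3.72 and 3.49 FPKM in its own knockout against 19.8, 20.5 and 20.3 in wild type, and Pcgf6 was at 9.56 and 9.82 FPKM in its own knockout against 29.4, 29.7 and 27.6 in wild type. Mga was at 19.7, 18.6 and 17.1 FPKM in wild type, and at 8.03, 19.6 and 11.2 in Mga knockout libraries 1, 2 and 3 by their labels. The library labelled Mga knockout replicate 2 thus had Mga at the wild type level. Over its 3 libraries Mga differed from wild type by -0.61 (log2, limma adjusted p = 0.0987), and without that library by -0.95 (adjusted p = 0.00069). The sources used here do not give whether the deletion removes the counted exons, so transcript level alone does not settle any label, and the counts below are also given without that library.

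Every comparison with wild type rests on the same 3 libraries, so a peculiarity of these cells and a response common to the knockouts cannot be told apart. Whole chromosomes also differed. Median differences from wild type on chromosome 1 were 0.76 and 0.75 (log2) in the L3mbtl2 knockout libraries, and the library labelled Mga knockout replicate 1 was at 0.57. Chromosome Y genes were at medians of -2.68 to -2.05 in the Mga and Pcgf6 knockout libraries and of 0.89 and 0.88 in the L3mbtl2 knockout libraries. Macrophage markers moved with genotype: the summed level of the 25 listed markers, 22 of them tested, was 229 to 237 FPKM in wild type, 40.1 to 95 in the libraries labelled Mga knockout, 594 and 607 in L3mbtl2-/- cells, and 305 and 306 in Pcgf6-/- cells. In such bulk samples fewer cells of a type and less RNA per cell cannot be told apart.

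The pooled contrast asked how the mean of the 3 knockout genotypes, each with equal weight, differed from wild type. Of 15731 tested genes, limma called 3267 (20.8%) higher and 2284 (14.5%) lower in the knockouts at a Benjamini-Hochberg adjusted p under 0.05. The split depended on scaling: with median-of-ratios size factors 2565 genes were higher and 2851 lower, and with upper-quartile scaling 2627 and 2761. This test leaves differences between genotypes out of the error. In a fit that treats the 7 knockout libraries as 1 group, so that differences between genotypes count as error, 841 genes were higher and 628 lower. Leaving out wild type replicate 1, 2 or 3 gave 1939, 1768 or 1831 higher genes and 1399, 1317 or 1335 lower genes.

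Every knockout library lay above all wild type libraries at 2055 genes (13.1%), and below them at 1599 genes (10.2%). Most of these separations were narrow. The gap, which is the log2 distance on the log2(FPKM + 0.1) scale between the closest knockout and the closest wild type library, had a median of 0.17 for higher and 0.20 for lower genes, and 673 and 456 genes had a gap under 0.1. Under median-of-ratios scaling the counts were 1572 higher and 2033 lower. Without the library labelled Mga knockout replicate 2 they were 2542 and 1850, and without the genes of shifted chromosomes 1432 and 989.

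A wide gap, at least 1 on that log2 scale, was found at 139 higher genes (0.884% of those tested) and 55 lower genes (0.350%). The members nearest to this limit had gaps of 1.0 inside and 0.99 outside. With median-of-ratios size factors 126 higher and 65 lower genes had a wide gap, and with upper-quartile scaling 129 and 59. All 139 higher and 55 lower genes stayed on their side of wild type under both scalings. A gap of this width largely fixes that outcome in advance. Without the library labelled Mga knockout replicate 2 the wide-gap counts were 190 and 73. Of the 139 higher genes, 104 had a wild type mean under 1 FPKM, and the median level went from 0.351 FPKM in wild type to 6.28 FPKM over the knockout libraries. The lower genes went from a median of 4.35 FPKM to 1.13 FPKM. Genes of the X chromosome made up 29 of the 139 higher genes (20.9%) and 598 of all tested genes (3.8%). Over all 2055 higher genes of the common response the X held 101 (4.91%), and 2 of the 55 lower genes lay on the X. Genes nearly silent in wild type pass the level filter only through knockout libraries, so all tested genes are not a like set. Some X-linked entries are near-identical copies or overlap, so the 29 are not all independent genes.

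**Figure D1:**
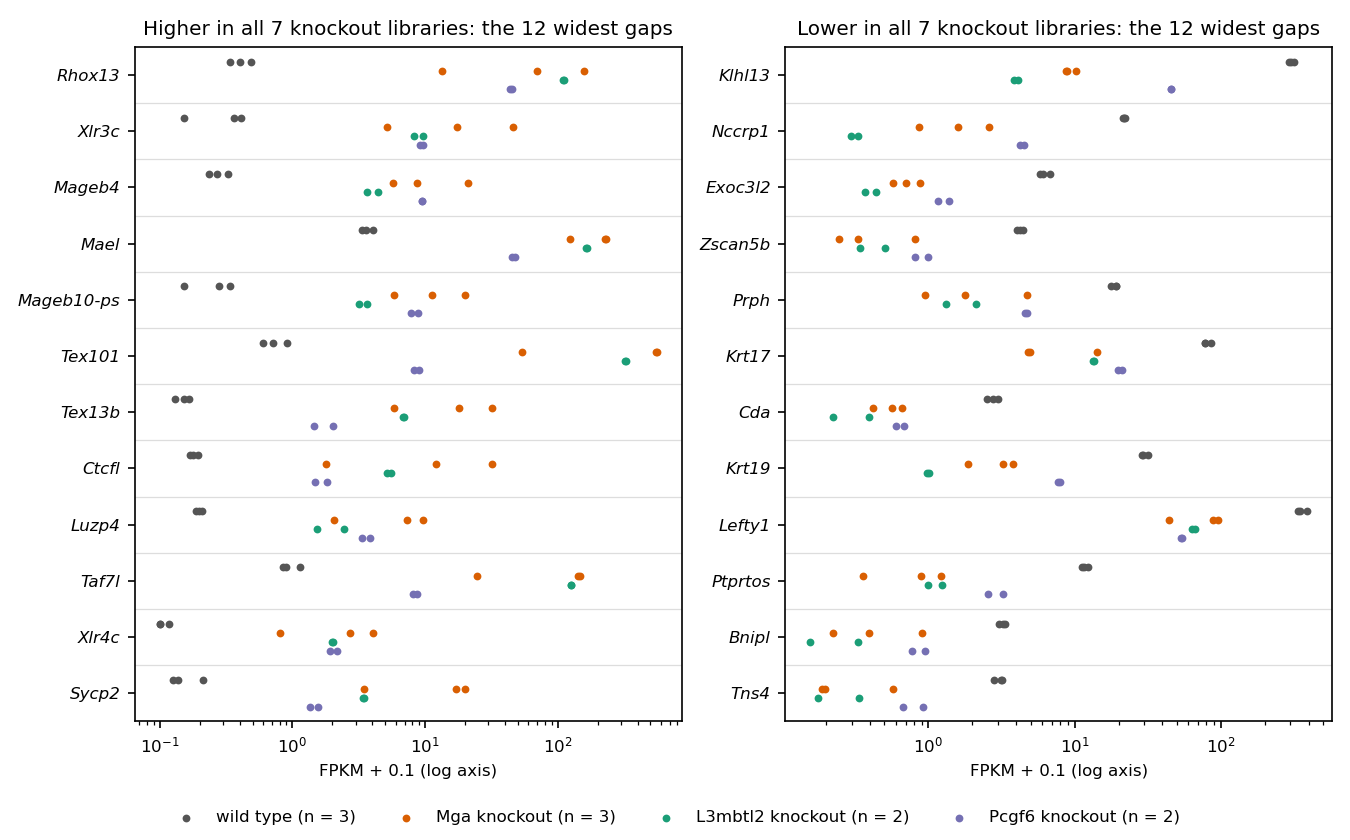
Level of each gene in each of the 10 libraries (FPKM + 0.1, log axis) for the 12 higher and the 12 lower genes with the widest gap, with 1 point per library coloured by genotype. In every row all coloured knockout points lie on one side of the grey wild type points, from Rhox13 with a gap of 4.78 and Klhl13 with a gap of 2.70 downwards.

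The widest separation in the data was at Rhox13, a homeobox gene of the X-linked reproductive cluster. Its level was 0.239, 0.299 and 0.386 FPKM in wild type, 69.7, 13.3 and 159 in the libraries labelled Mga knockout, 111 and 110 in L3mbtl2-/- cells, and 45.5 and 43.7 in Pcgf6-/- cells. No knockout library came near the wild type range, and the pooled difference was 7.31 ± 0.62 (log2, SE, limma adjusted p = 0.00013). The library labelled Mga knockout replicate 2 was the lowest of the 7. Other X-linked genes among the 12 widest gaps were Xlr3c and Xlr4c of the lymphocyte-regulated family, the MAGE family gene Mageb4 and the pseudogene Mageb10-ps, the testis gene Tex13b, Luzp4, which codes for a leucine zipper protein, and Taf7l, a germ cell paralogue of the TFIID subunit gene Taf7. Xlr, Mageb and Rhox genes have near-identical copies, so reads could be split among members and these values are uncertain. Mageb10-ps also lies within the annotated bounds of Mageb4 on the same strand, so these entries may not be independent.

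Xlr3c was at 0.0528, 0.307 and 0.261 FPKM in wild type. Libraries reached 5.07, 46.3 and 17.3 where labelled Mga knockout, 9.49 and 8.17 in L3mbtl2-/- cells, and 9.59 and 9.06 in Pcgf6-/- cells. Here the library labelled Mga knockout replicate 2 was the highest of all, the reverse of its place at Rhox13. Mageb4 was at 0.135 to 0.226 FPKM in wild type, with knockout levels from 3.55 in L3mbtl2 knockout to 20.9 in the library labelled Mga knockout replicate 3.

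Regulators of germ cells and of meiosis entry formed the list with the largest share in the common response. Of 24 tested members, 19 were called higher and none lower, 18 were above wild type in all 7 libraries, and 9 had a wide gap. The median difference was 2.77 (log2), beside 0.10 over all tested genes. Genes that are nearly silent in wild type enter the test only through the knockout libraries where they are high, so these counts describe the list and do not set it apart by a test. The lists were also chosen with earlier results of these data known. Outside the shifted chromosomes 13 members were tested, 12 of them called higher.

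Dazl, an RNA-binding translational regulator of germ cells, showed a steep gradient among genotypes. It was at 1.15, 0.776 and 1.37 FPKM in wild type, 312, 138 and 262 in the libraries labelled Mga knockout, 70.9 and 73.6 in L3mbtl2-/- cells, and 5.47 and 5.70 in Pcgf6-/- cells. The order Mga, L3mbtl2, Pcgf6 held for each library, with the Pcgf6 knockout closest to wild type. Its pooled difference was 5.27 ± 0.25 (log2, SE, limma adjusted p = 6.58e-06). Stk31, which codes for a Tudor domain kinase of the testis, repeated this order of genotype means at lower levels. It was at 0.705 to 1.03 FPKM in wild type and 23.1 to 36.8 in the libraries labelled Mga knockout. Its levels were 21.6 and 21.8 in L3mbtl2-/- cells, and 6.50 and 7.30 in Pcgf6-/- cells. Stk31 lies on chromosome 6, whose median was 0.04 to 0.53 (log2) in the knockout libraries.

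Taf7l was at 0.745, 0.800 and 1.04 FPKM in wild type, 147, 24.5 and 143 in the libraries labelled Mga knockout, 126 and 126 in L3mbtl2-/- cells, and 7.96 and 8.62 in Pcgf6-/- cells. Tex101, a germ cell surface glycoprotein gene on chromosome 7, was at 0.505, 0.610 and 0.817 FPKM in wild type, 559, 53.4 and 551 in the libraries labelled Mga knockout, 319 and 329 in L3mbtl2-/- cells, and 8.94 and 8.10 in Pcgf6-/- cells. At both genes the Pcgf6 knockout was well below the L3mbtl2 knockout, and the library labelled Mga knockout replicate 2 lay between them. Their pooled differences were 5.53 ± 0.50 for Taf7l (log2, SE, limma adjusted p = 0.000186) and 6.93 ± 0.66 for Tex101 (adjusted p = 0.000243). Ctcfl, the testis paralogue of the insulator protein gene Ctcf, rose from at most 0.0935 FPKM in wild type to between 1.38 and 31.6 FPKM.

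The piRNA pathway protects the germline genome against transposons. Of its 19 tested members, 14 were called higher and 1 lower, 11 were above wild type in every knockout library and 9 of these by a wide gap, with a list median of 2.46. The shares of all tested genes were 20.8% called higher and 13.1% above wild type in every knockout library. The limit given above for genes nearly silent in wild type holds here too. Ddx4, the germline RNA helicase gene at chr13:112598333-112652475 (GRCm38, minus strand), had the smallest pooled p among the members of all lists. It was at 10.2, 9.76 and 9.21 FPKM in wild type, 168, 170 and 181 in the libraries labelled Mga knockout, 158 and 153 in L3mbtl2-/- cells, and 42.0 and 45.0 in Pcgf6-/- cells. Replicates stood close together here, the library labelled Mga knockout replicate 2 included, and the pooled difference was 3.43 ± 0.06 (log2, SE, limma adjusted p = 8.71e-09).

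Mael, needed for transposon silencing in the male germline, went from 3.48, 3.26 and 3.95 FPKM in wild type to 230, 124 and 229 in the libraries labelled Mga knockout, 167 and 164 in L3mbtl2-/- cells, and 47.4 and 45.1 in Pcgf6-/- cells (4.95 ± 0.18, log2, SE, limma adjusted p = 1.79e-06). Mov10l1, the helicase that starts piRNA processing, behaved otherwise in the L3mbtl2 knockout: it was at 0.653 to 1.30 FPKM in wild type, 83.5 to 135 in the libraries labelled Mga knockout, 2.81 and 3.00 in L3mbtl2-/- cells, and 14.1 and 14.1 in Pcgf6-/- cells. Piwil2, a PIWI protein gene, was the most even of the 4 named members. It was at 7.64 to 8.24 FPKM in wild type and 37.2 to 65.5 FPKM in all 7 knockout libraries. The test among the knockouts gave an adjusted p of 0.178 at Piwil2. Mael lies on chromosome 1 and Piwil2 on chromosome 14, both of them shifted chromosomes. Outside the shifted chromosomes 10 of 13 tested members of the piRNA list were called higher and 1 lower.

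The synaptonemal complex and meiotic cohesin list had 14 of 18 tested members called higher and none lower. Only 9 of them were above wild type in all 7 libraries, and 5 had a wide gap. Of all tested genes 20.8% were called higher and 13.1% were above wild type in all 7 libraries. The limit given above for genes nearly silent in wild type holds for the meiotic lists too. Smc1b, the meiotic cohesin subunit gene, was at 0.419 to 0.760 FPKM in wild type, 20.7 to 37.1 in the libraries labelled Mga knockout, 5.14 and 5.10 in L3mbtl2-/- cells, and 2.2 and 2.03 in Pcgf6-/- cells. Tex11, an X-linked meiosis gene, was at 0.743 to 1.17 FPKM in wild type, 24.6 to 42.2 in the libraries labelled Mga knockout, 7.01 and 6.41 in L3mbtl2-/- cells, and 10.5 and 10.6 in Pcgf6-/- cells. Sycp2, a lateral element protein gene, rose from at most 0.112 FPKM to between 1.25 and 19.8 FPKM. Majin, which tethers meiotic telomeres, separated from wild type by 0.46 (log2), with 0.446 and 0.881 FPKM in Pcgf6 knockout against at most 0.298 in wild type. The list medians were 3.78 in Mga, 0.94 in L3mbtl2 and 0.99 in Pcgf6 knockout (log2 differences from wild type).

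Among meiotic recombination genes, 9 of 16 tested members were called higher, none lower, and 5 were in the common response, all with gaps under 1. Beside these stand 20.8% of all tested genes called higher and 13.1% above wild type in every knockout library. Trip13, a meiotic and mitotic checkpoint ATPase gene already present in wild type at 15.9 to 17.2 FPKM, was at 25.3 to 26.2 in the libraries labelled Mga knockout, 27.8 and 28.4 in L3mbtl2-/- cells, and 19 and 19.4 in Pcgf6-/- cells. Mei1 was in the common response with 0.0795 to 0.174 FPKM in wild type, 5.86 to 27.8 in the libraries labelled Mga knockout, 0.329 and 0.312 in L3mbtl2-/- cells, and 2.22 and 2.04 in Pcgf6-/- cells. Rnf212, a gene for a crossover factor, was high in 1 genotype: 21.9 to 27.1 FPKM in the libraries labelled Mga knockout against 0.133 to 0.149 in wild type and at most 0.307 in the 4 other knockout libraries. Mei1 and Rnf212 were called in the pooled contrast, but in the 2-group fit their adjusted p-values were 0.0738 and 0.337.

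Promoter windows show where matches to the motifs of the DNA-binding subunits lie in front of such genes. RefSeq windows of 250 bases before to 50 after a start (GRCm38.p6) could be matched by symbol for 91 of the 139 wide-gap higher genes, 37 of the 55 wide-gap lower genes and 10904 of the tested genes. The letters CACGTG (E-box), GCGGGAA (E2F) and AGGTGTG (T-box) were searched on both strands, and none of the 3 contains another. The E-box was in a window of 18 of the 91 higher genes (19.8%), 3 of the 37 lower genes (8.11%), 11.8% of tested genes and 9.86% of tested genes under 1 FPKM in wild type. The E2F letters were in 16.5%, 10.8%, 9.73% and 7.36% of the same sets, and the T-box letters in 9.89%, 10.8%, 5.47% and 7.41%. Over all 27025 RefSeq genes with a window the shares were 8.09%, 5.29% and 6.72%. These shares are a description with no test, and a match is not a bound site.

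The 250 bases before the start are printed 5′ to 3′ on the gene's strand for 4 germline genes named here that hold a match, with matches in capitals. Taf7l (chrX:134476491-134476740, minus strand), Mael (chr1:166238745-166238994, minus strand) and Slc25a31 (chr3:40708621-40708870, plus strand) are of the common response. Hormad1 (chr3:95559427-95559676, plus strand), described further on, failed it in the L3mbtl2 knockout. The last few bases of the Slc25a31 and Mael windows run into the first exon of these genes as GENCODE annotates them. Ddx4 and Tuba3a also hold matches and are not printed. Other named genes have a match in a window too, among them Stk31 and Mov10l1 (E-box) and Smc1b (E2F), and are not printed either.
Taf7l: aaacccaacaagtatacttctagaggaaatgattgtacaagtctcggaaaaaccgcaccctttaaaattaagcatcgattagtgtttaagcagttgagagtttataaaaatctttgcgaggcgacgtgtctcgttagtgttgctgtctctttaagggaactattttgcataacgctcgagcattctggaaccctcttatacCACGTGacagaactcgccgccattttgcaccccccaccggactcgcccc
Slc25a31: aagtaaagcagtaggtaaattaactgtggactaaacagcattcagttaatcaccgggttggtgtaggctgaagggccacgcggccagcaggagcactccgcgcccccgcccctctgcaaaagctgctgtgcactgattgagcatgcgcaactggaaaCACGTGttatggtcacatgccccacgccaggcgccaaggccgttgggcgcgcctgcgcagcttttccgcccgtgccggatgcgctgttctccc
Mael: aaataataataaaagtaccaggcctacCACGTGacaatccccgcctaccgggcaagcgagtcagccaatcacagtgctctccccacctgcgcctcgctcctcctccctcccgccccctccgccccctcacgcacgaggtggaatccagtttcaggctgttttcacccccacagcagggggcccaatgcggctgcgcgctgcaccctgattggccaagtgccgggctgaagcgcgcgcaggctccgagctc
Hormad1: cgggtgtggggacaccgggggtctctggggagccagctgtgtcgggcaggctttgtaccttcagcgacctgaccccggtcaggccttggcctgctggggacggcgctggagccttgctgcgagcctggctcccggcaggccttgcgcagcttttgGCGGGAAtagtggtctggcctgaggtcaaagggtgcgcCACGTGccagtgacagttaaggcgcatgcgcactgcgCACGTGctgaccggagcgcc
In the windows shown, Taf7l, Slc25a31 and Mael each have 1 E-box, which starts at position -49, -93 and -223, counted from -1 at the base before the RefSeq start. Hormad1 has an E2F match at -95 and E-boxes at -57 and -20. Sycp2, Rhox13, Tex101 and Dazl have none of the 3 letter runs in the 250 bases before the RefSeq start used, which says only that these letters are not in that stretch. The Tex101 stretch (chr7:24672051-24672300) lies inside the gene as GENCODE annotates it (24668007-24676675). The Rhox13 stretch ends at 38120839, short of the GENCODE start at 38121219.

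Transcripts of the 2-cell embryo, which a few cells of such cultures express at any time, were called higher at 12 of 13 tested members, with 8 in the common response and 4 with a wide gap. Over all tested genes 20.8% were called higher and 13.1% were above wild type in every knockout library. The whole list summed to only 1.67 to 1.77 FPKM in the wild type libraries. Such members enter the test through knockout libraries where they are high, so these counts are a description. Zscan4f was listed at 0 in all 3 wild type libraries. Levels of 1.64, 2.01 and 10.1 FPKM were found where the label was Mga knockout, 0.139 and 0.232 in L3mbtl2-/- cells, and 5.90 and 6.05 in Pcgf6-/- cells. The L3mbtl2 knockout was thus the lowest, and the list medians were 3.28 in Mga, 0.55 in L3mbtl2 and 4.22 in Pcgf6 knockout (log2). Zscan4 genes are near-identical copies and their values are uncertain, and the values do not tell whether few or many cells carry the transcripts.

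Nanog, Tbx3, Klf4 and Klf5 were among the pluripotency genes that were higher. Of 31 tested pluripotency genes, 18 were called higher, 3 lower and 10 neither, with 16 above and 3 below wild type in every knockout library and a list median of 0.36. Over all tested genes 20.8% were called higher and 14.5% lower. Outside the shifted chromosomes 8 of 17 were called higher and 1 lower. Nanog, a core pluripotency transcription factor gene, was at 142, 146 and 142 FPKM in wild type, 417, 444 and 463 in the libraries labelled Mga knockout, 601 and 599 in L3mbtl2-/- cells, and 218 and 219 in Pcgf6-/- cells. No genotype overlapped wild type or another genotype (pooled difference 1.43 ± 0.05, log2, SE, limma adjusted p = 1.66e-06). Tbx3, a T-box factor gene, went from 2.87 to 3.21 FPKM in wild type to between 20.5 and 59.7 FPKM, and Klf4 from 16.7 to 17.2 FPKM to between 68.0 and 174 FPKM, both by a wide gap. Klf5 was at 38.2 to 40.1 FPKM in wild type, 69.9 to 93.8 in the libraries labelled Mga knockout, 200 and 185 in L3mbtl2-/- cells, and 85.0 and 74.4 in Pcgf6-/- cells.

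Primitive endoderm genes had 8 of 21 tested members called higher and none lower, with 7 in the common response. Over all tested genes 20.8% were called higher and 13.1% were above wild type in every knockout library. Gata4, an endoderm transcription factor gene, rose from 0.278 to 0.472 FPKM in wild type to between 1.88 and 5.91 FPKM in the knockouts (2.69 ± 0.19, log2, SE, limma adjusted p = 5.93e-05). Nid2, a basement membrane protein gene, was at 36.8 to 37.5 FPKM in wild type and 71.0 to 247 in the knockouts. Outside the shifted chromosomes, 2 of 11 tested members of this list were called higher. That is near the share of all genes tested there, 2149 of 10713. Gata4 and Nid2 lie on chromosome 14, whose median was 0.06 to 0.43 (log2) in the knockout libraries.

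Markers of the primed epiblast had 7 members called higher and 3 lower of 14 tested. For this list and the next ones, the shares of all tested genes were 20.8% called higher and 14.5% called lower. Lef1, a WNT pathway transcription factor gene, rose from 0.204 to 0.281 FPKM to between 1.04 and 3.47 FPKM, and Foxd3 from 6.07 to 7.86 FPKM to between 13.6 and 27.1 FPKM. Dnmt3b, the de novo DNA methyltransferase gene, separated from wild type in 2 genotypes: 64.1 to 65.8 FPKM in wild type, 32.9 to 43.2 in the libraries labelled Mga knockout, 33.4 and 33.6 in L3mbtl2-/- cells, and 64.7 and 64.3 in Pcgf6-/- cells. Its 2-group adjusted p was 0.114. Mesoderm markers (11 tested) had 2 called higher and 3 lower, with Mesp2 rising from 1.23 to 1.62 FPKM to between 2.48 and 5.56 FPKM. The mesoderm count of higher genes is near the share of all genes. Hox genes had 6 of 20 tested members called higher, all at low levels: Hoxd1 went from 0.182 to 0.247 FPKM to between 0.443 and 1.92 FPKM, and its adjusted p of 0.0136 was 0.0522 without wild type replicate 2, 0.0613 without wild type replicate 3 and 0.0575 in the 2-group fit.

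Of 12 tested transcripts of the mitochondrial genome, 9 were called higher and 7 were above wild type in every knockout library. The same shares over all tested genes were 20.8% and 13.1%. mt-Nd5, a complex I subunit gene, was at 712, 718 and 705 FPKM in wild type, 1730, 1170 and 2060 in the libraries labelled Mga knockout, 1240 and 1180 in L3mbtl2-/- cells, and 1310 and 1390 in Pcgf6-/- cells. mt-Cytb was at 2310 to 2400 FPKM in wild type and 3020 to 6470 in the knockouts.

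**Figure D2:**
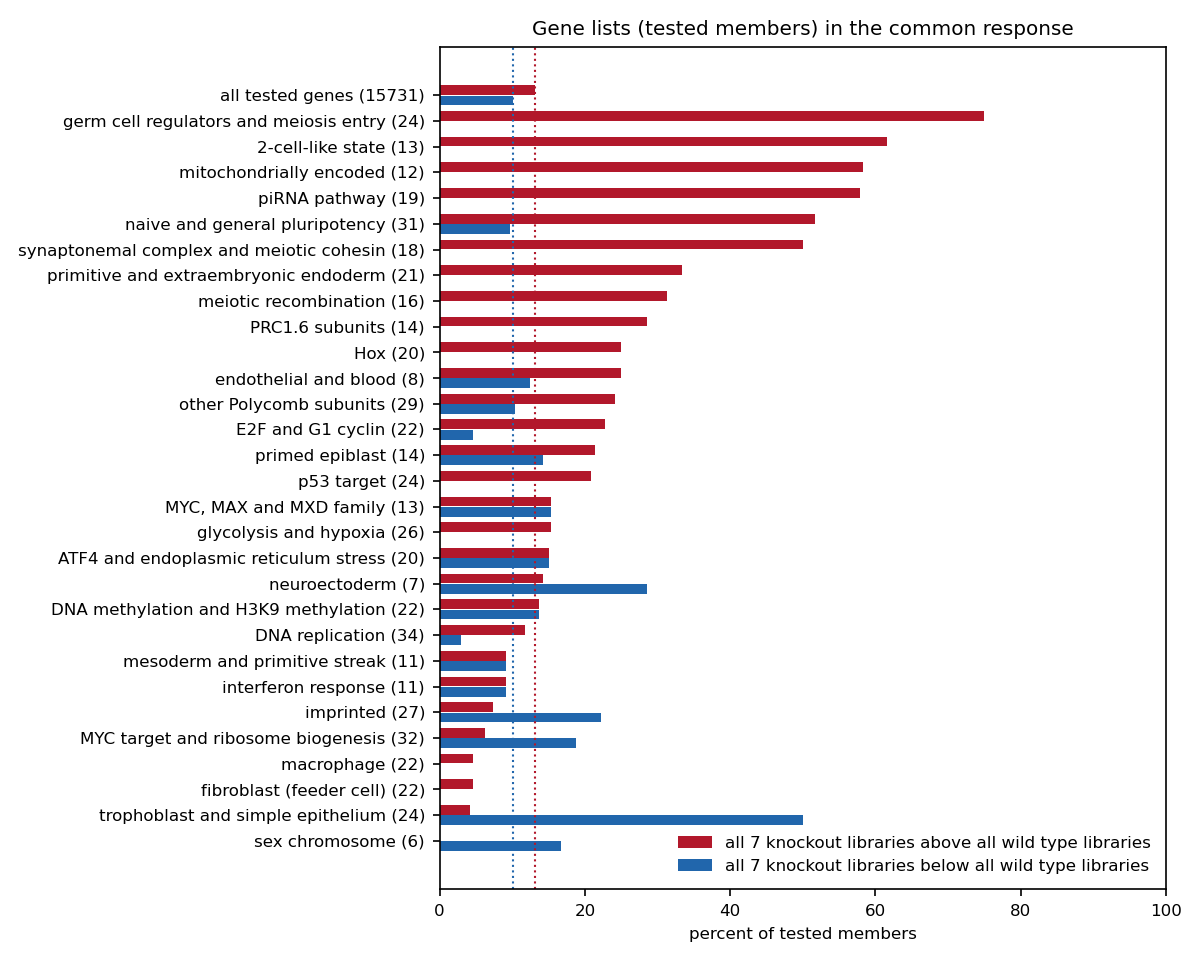
Percent of the tested members of each gene list, with their number in brackets, that lay above (red) or below (blue) all wild type libraries in all 7 knockout libraries. Dotted lines mark the shares over all tested genes, 13.1% above and 10.2% below, and germ cell regulators reach the largest share above while trophoblast and simple epithelium genes reach the largest share below.

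On the lower side, the widest gap was at Klhl13, which codes for an adaptor of the CUL3 ubiquitin ligase and lies at chrX:23219271-23365082 (GRCm38, minus strand). It was at 317, 305 and 296 FPKM in wild type, 8.85, 8.67 and 10.2 in the libraries labelled Mga knockout, 4.02 and 3.77 in L3mbtl2-/- cells, and 45.4 and 45.4 in Pcgf6-/- cells. Replicates of each genotype nearly coincided and the 3 genotypes stood far apart, with a pooled difference of -4.68 ± 0.07 (log2, SE, limma adjusted p = 5.05e-09). Lefty1, an inhibitor of Nodal signalling, fell more evenly, from 338, 352 and 391 FPKM to 44.5, 95.3 and 88.0 in the libraries labelled Mga knockout, 66.6 and 63.2 in L3mbtl2-/- cells, and 53.6 and 54.4 in Pcgf6-/- cells. The test among the knockouts gave an adjusted p of 0.442 at Lefty1.

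Krt19, Epcam and Cldn7 were among the epithelial genes that fell. Of 24 tested members of the trophoblast and simple epithelium list, 14 were called lower, 1 higher and 9 neither, 12 were below wild type in all 7 libraries, and 4 had a wide gap. The list median was -1.37 (log2). Over all tested genes 14.5% were called lower, and 10.2% were below wild type in all 7 libraries. Krt19, a simple epithelial keratin gene, was at 28.9, 29.2 and 31.9 FPKM in wild type, 3.15, 1.76 and 3.70 in the libraries labelled Mga knockout, 0.885 and 0.913 in L3mbtl2-/- cells, and 7.66 and 7.85 in Pcgf6-/- cells (-3.42 ± 0.20, log2, SE, limma adjusted p = 1.73e-05). Krt17, a keratin gene outside the list, fell from 78.3 to 86.0 FPKM to between 4.68 and 21.1 FPKM.

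Epcam, an epithelial adhesion molecule gene, was at 135, 133 and 135 FPKM in wild type, 49.7, 41.9 and 40.3 in the libraries labelled Mga knockout, 21.3 and 21 in L3mbtl2-/- cells, and 89.8 and 91.2 in Pcgf6-/- cells. Cldn7, a tight junction claudin gene, was at 21.6 to 21.9 FPKM in wild type and fell to 4.19 to 7.04, to 1.62 and 2.14, and to 9.86 and 10.4 FPKM in the same order of genotypes. At Krt19, Epcam and Cldn7 the L3mbtl2 knockout was lowest and the Pcgf6 knockout nearest to wild type. Krt19, Krt17 and Cldn7 lie on chromosome 11, whose median was -0.36 to -0.11 (log2) in the Mga and Pcgf6 knockout libraries and 0.10 and 0.13 in the L3mbtl2 knockout libraries. The part of this shift in their values was not tested. Outside the shifted chromosomes 11 of 17 tested members of the list were called lower.

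Other genes with wide gaps on the lower side were Nccrp1, Exoc3l2, Zscan5b, Prph, Cda, Bnipl, Tns4 and Ptprtos. Nccrp1 fell from 21.4 to 22.1 FPKM to 0.764 to 2.51 in the libraries labelled Mga knockout, 0.193 and 0.227 in L3mbtl2-/- cells, and 4.16 and 4.42 in Pcgf6-/- cells. Prph, the intermediate filament gene peripherin, fell from at least 17.7 FPKM to between 0.843 and 4.62 FPKM. Ptprtos is annotated antisense to Ptprt, and because the library kit does not mark strand its value of 11.2 to 12.3 FPKM in wild type and 0.256 to 3.14 in the knockouts may include reads of its partner.

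Imprinted genes had 9 of 27 tested members called lower and 1 higher, with 6 below wild type in every knockout library. Over all tested genes 14.5% were called lower, 20.8% higher, and 10.2% were below wild type in every knockout library. Igf2, the paternally expressed growth factor gene, was at 38.8, 39.3 and 39.5 FPKM in wild type, 13.2, 4.21 and 8.78 in the libraries labelled Mga knockout, 4.25 and 4.14 in L3mbtl2-/- cells, and 9.06 and 9 in Pcgf6-/- cells. It was the member with a wide gap (-2.53 ± 0.28, log2, SE, limma adjusted p = 0.000472). Phlda2, a maternally expressed growth restrictor, fell from 159 to 164 FPKM to 8.96 to 23.2 in the libraries labelled Mga knockout, 15.5 and 13.9 in L3mbtl2-/- cells, and 83.3 and 86.7 in Pcgf6-/- cells. Sfmbt2, which codes for a relative of L3MBTL2, fell from 6.38 to 6.87 FPKM to between 0.442 and 3.57 FPKM. Peg3 did not separate in every library, with 16.9 to 19 FPKM in wild type, 0.809 to 2.84 in the libraries labelled Mga knockout, 3.21 and 3.30 in L3mbtl2-/- cells and 18.4 and 18.2 in Pcgf6-/- cells, and its 2-group adjusted p was 0.116.

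In the MYC, MAX and MXD network, of which MGA is a member, 1 of 13 tested genes was called higher and 2 lower. Over all tested genes 20.8% were called higher and 14.5% lower, so the lower count is near the share of all genes. Mycn fell from 81.6, 82.4 and 85.2 FPKM in wild type to 46.6, 49.3 and 43.9 in the libraries labelled Mga knockout, 22.7 and 23.4 in L3mbtl2-/- cells, and 41.1 and 40.7 in Pcgf6-/- cells (-1.23 ± 0.05, log2, SE, limma adjusted p = 4.01e-06). Mnt, which codes for a MAX-binding repressor and lies on chromosome 11, fell from 24.3 to 25.3 FPKM to between 10.6 and 16.1 FPKM. Ribosome biogenesis and other MYC target genes had 3 called higher and 7 lower of 32 tested. Outside the shifted chromosomes 2 of 18 were called lower and none higher. Of all 10713 genes tested there, 1399 were called lower and 2149 higher, so the lower count is near that share. Mybbp1a and Pes1, both of chromosome 11, were among the 7, at 253 to 257 and 99.6 to 107 FPKM in wild type against at most 186 and 91.3 FPKM in any knockout library.

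Within the complex itself, 3 of 14 tested subunit genes were called higher and 3 lower, beside 20.8% and 14.5% of all tested genes. The higher count is near the share of all genes, and 2 of the 3 lower genes were the targeted L3mbtl2 and Pcgf6. E2f6, the E2F subunit gene of the complex, was at 11.1, 11.3 and 11 FPKM in wild type, 39.9, 31.7 and 31.5 in the libraries labelled Mga knockout, 27.8 and 28.7 in L3mbtl2-/- cells, and 18.6 and 20.9 in Pcgf6-/- cells (1.25 ± 0.09, log2, SE, limma adjusted p = 5.32e-05). Hdac2 rose from 29.9 to 30.9 FPKM to between 36.8 and 61.9 FPKM. Of 29 other Polycomb genes, 11 were called higher and 6 lower. Phf19, a PRC2 accessory subunit gene, fell from 7.90 to 8.11 FPKM to between 1.25 and 4.37 FPKM, and Bmi1, the PCGF4 subunit gene, rose from 0.951 to 1.11 FPKM to between 1.58 and 5.08 FPKM.

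Beside 20.8% of all tested genes called higher and 14.5% called lower, the calls in the remaining lists were 8 higher and 1 lower of 24 p53 targets, 4 and 2 of 22 E2F and G1 cyclin genes, 5 and 3 of 34 DNA replication genes, 3 and 5 of 22 DNA and H3K9 methylation genes, 4 and 8 of 26 glycolysis and hypoxia genes, 1 and 3 of 20 ATF4 and endoplasmic reticulum stress genes, and 2 and 2 of 11 interferon response genes. E2f2 rose from 1.49 to 1.64 FPKM to between 3.00 and 4.95 FPKM. Ehmt1, an H3K9 methyltransferase gene, fell from 18.2 to 18.6 FPKM to between 11 and 14 FPKM, and Pfkp, a phosphofructokinase gene, rose from 15.9 to 16.6 FPKM to between 27.9 and 46.4 FPKM. Ccne1, a G1 cyclin gene, was at 77.1 to 78.7 FPKM in wild type, 13.9 to 28.3 in the libraries labelled Mga knockout and 29.7 and 29.4 in L3mbtl2 knockout, but 83.1 and 85.0 in Pcgf6 knockout, and its 2-group adjusted p was 0.142.

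Markers of other cell types were read against the same shares of all tested genes. Of 22 macrophage markers 1 was called higher and 2 lower. Laptm5 was the higher one, at 15.5 to 15.8 FPKM in wild type and 17.1 to 40.7 in the knockouts, with an adjusted p of 0.0174 that became 0.0618, 0.0624 and 0.0655 without wild type replicate 1, 2 and 3, 0.125 in the 2-group fit and 0.135 without the Pcgf6 knockout libraries. Of 22 fibroblast markers 1 was called higher, Fn1, at 140 to 149 FPKM in wild type and 196 to 264 in the knockouts. The summed fibroblast markers were 590 to 595 FPKM in wild type and 544 to 1370 in the knockouts, with the library labelled Mga knockout replicate 1 highest. Of 8 endothelial and blood genes 2 were called higher and 1 lower, Tek, which fell from 6.4 to 6.94 FPKM to between 0.692 and 3.40 FPKM. Neuroectoderm markers had 1 called higher and 2 lower of 7, with Map2 falling from 1.05 to 1.26 FPKM to between 0.0833 and 0.492 FPKM.

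A further question was whether genes that moved together moved to the same level. The moderated F test over the 3 knockouts, which leaves wild type out of the contrast, called 6369 of all tested genes (40.5%) and 1427 of the 3654 genes in the common response (39.1%). In the wide-gap classes it called 65 of the 139 higher genes (46.8%) and 23 of the 55 lower genes (41.8%). The share in the common response was thus near that of all genes. This count varied with single libraries: it was 2690 without the library labelled Mga knockout replicate 2, 700 and 717 without L3mbtl2 knockout replicate 1 and 2, and 736 and 746 without Pcgf6 knockout replicate 1 and 2.

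The Pcgf6 knockout had the mildest change in most wide-gap genes. Among the 139 higher genes, its mean was the lowest of the 3 genotypes at 92, and the contrast against the other 2 knockouts placed it below them at 52 genes and above at 4. That contrast called 2568 of all tested genes (16.3%) lower and 2087 (13.3%) higher. The Mga knockout mean was the highest of the 3 at 83 of the 139 genes, with 36 called above the other 2 knockouts and 8 below, where 1483 (9.43%) and 1454 (9.24%) of all tested genes were called. L3mbtl2 knockout was above the others at 27 genes and below at 18, beside 2360 (15.0%) and 2055 (13.1%) of all tested genes. Among the 55 lower genes, Pcgf6 knockout had the highest mean at 44 and was called above the others at 21 and below at 1, and L3mbtl2 knockout was called below at 17 and above at none. These classes are bounded by the mildest library, which fixes part of this pattern, so the counts are a description.

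**Figure D3:**
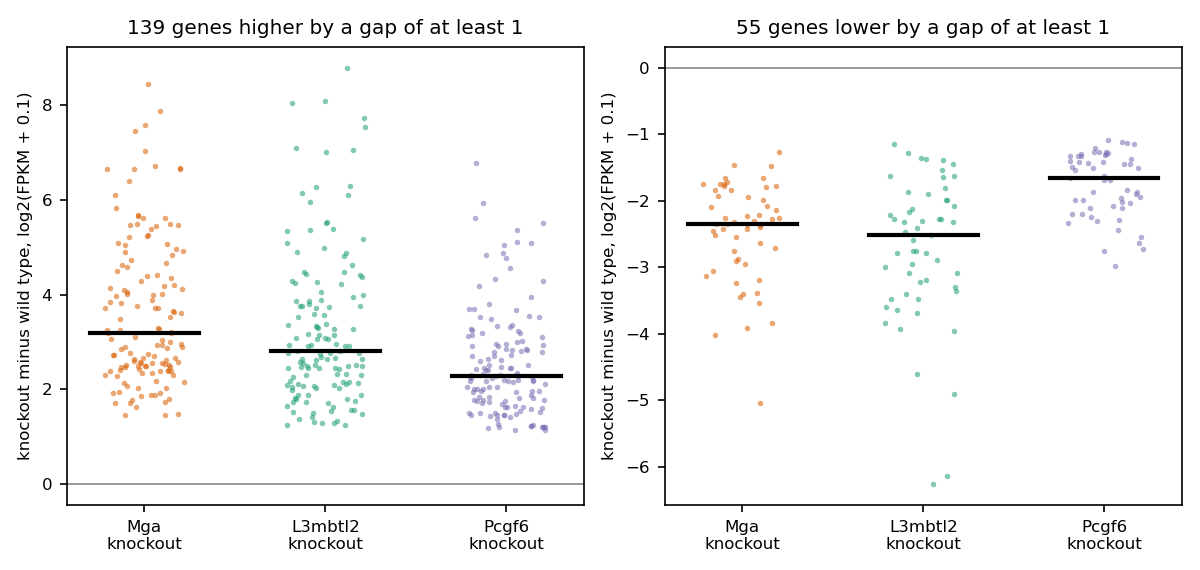
Difference from wild type on the log2(FPKM + 0.1) scale in each genotype for the 139 higher and 55 lower genes with a gap of at least 1, with 1 point per gene and a black bar at the median. The medians are 3.20, 2.82 and 2.28 for higher genes and -2.35, -2.51 and -1.65 for lower genes in Mga, L3mbtl2 and Pcgf6 knockout.

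The genes of the common response with the smallest p among knockouts were, beside Klhl13 and Ddx4, Tuba3a, Slc25a31, Zcwpw1 and Mreg. Slc25a31, a testis isoform gene of the mitochondrial ADP/ATP carrier, was at 0.472, 0.510 and 0.671 FPKM in wild type, 73.4, 89.2 and 97.3 in the libraries labelled Mga knockout, 1.25 and 0.918 in L3mbtl2-/- cells, and 3.30 and 3.47 in Pcgf6-/- cells. It counts as common, yet nearly all of its rise was in 1 genotype. Tuba3a, a testis alpha-tubulin gene with near-identical copies, was at 6.93 to 9.32 FPKM in wild type, 383 to 430 in the libraries labelled Mga knockout, 37.5 and 40.6 in L3mbtl2-/- cells, and 22.1 and 22.2 in Pcgf6-/- cells. Zcwpw1, which codes for a reader of meiotic histone marks, was at 2.38 to 2.65 FPKM in wild type, at least 36.1 in every Mga and L3mbtl2 knockout library, and 4.19 and 4.49 in Pcgf6 knockout.

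Mreg, the melanoregulin gene on chromosome 1, was at 36.4 to 39.4 FPKM in wild type and 39.8 and 41.2 in Pcgf6 knockout, a gap of 0.01, but at 67.1 to 75.2 in the libraries labelled Mga knockout and 154 and 150 in L3mbtl2 knockout. In the 2-group fit the adjusted p-values were 0.057 for Tuba3a, 0.115 for Slc25a31 and 0.134 for Mreg.

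Genes that failed in 1 genotype only were counted next, and a gene was called apart where the contrast of that genotype against the mean of the 2 other knockouts passed as well. In Pcgf6 knockout, 1370 genes higher in the 2 other genotypes failed, 973 of them apart by the contrast, and 817 lower genes failed, 665 of them apart. In L3mbtl2 knockout 495 higher genes (307 apart) and 389 lower genes (297 apart) failed. In Mga knockout 1443 higher genes (398 apart) and 973 lower genes (229 apart) failed, and 493 and 252 of these failed through replicate 2 alone. Over all tested genes the same contrast called 16.3% lower and 13.3% higher in Pcgf6 knockout. It called 13.1% and 15.0% in L3mbtl2 knockout, and 9.24% and 9.43% in Mga knockout. The rule picks genes by the same knockout values that the contrast uses, which favours a pass. The counts apart are therefore a description. The totals apart were sensitive to single libraries. For Pcgf6 knockout the total was 2853 without the library labelled Mga knockout replicate 2 and 460 and 403 without Pcgf6 knockout replicate 1 and 2. For L3mbtl2 knockout it was 1122 or 942 when replicate 1 or 2 of the label Mga knockout was left out, and 242 and 258 without L3mbtl2 knockout replicate 1 and 2. For Mga knockout it was 954 without its replicate 1, 360 without either L3mbtl2 knockout library, and 398 and 391 without Pcgf6 knockout replicate 1 and 2.

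The genes with the smallest p of the difference that failed in L3mbtl2 knockout included the meiotic genes Syce1 and Hormad1. Syce1, a synaptonemal complex central element gene on chromosome 7, was at 3.78, 3.66 and 3.83 FPKM in wild type, 65.7, 85.1 and 80.2 in the libraries labelled Mga knockout, 45.3 and 45.9 in Pcgf6 knockout, and 3.05 and 2.82 in L3mbtl2 knockout. It rose in 2 genotypes and lay just below wild type in the third, and L3mbtl2 knockout differed from the 2 others by -4.29 ± 0.10 (log2, SE, limma adjusted p = 5.25e-07). Hormad1, a meiotic chromosome axis gene, was at 2.99 to 4.69 FPKM in wild type, 123 to 167 in the libraries labelled Mga knockout, 4.84 and 6.70 in Pcgf6 knockout and 1.85 and 1.93 in L3mbtl2 knockout (-3.84 ± 0.20, adjusted p = 2.40e-05). The difference of Hormad1 from wild type in Pcgf6 knockout was not called (0.62, log2, limma adjusted p = 0.106). The E2F and E-box letters of its upstream stretch are printed above. An E-box was in a window of 39 of the 210 matched genes that were higher in 2 genotypes and apart in L3mbtl2 knockout (18.6%). It was in a window of 30 of the 299 matched genes apart in Mga knockout, 78 of the 694 apart in Pcgf6 knockout (11.2%) and 11.8% of tested genes, again with no test.

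Stard4, a cholesterol transfer protein gene, and the pseudogene Rps2-ps6 also failed in L3mbtl2 knockout, the latter with reads that may belong to Rps2. Rps2-ps6 rose mainly under the Mga knockout label, to 89.4, 95.2 and 94.4 FPKM from 5.34 to 7.47 in wild type. Pcgf6 knockout had 9.82 and 8.29 FPKM of Rps2-ps6, and L3mbtl2 knockout had 5 and 5.54. The Rps2-ps6 difference between Pcgf6 knockout and wild type was not called (0.44, log2, limma adjusted p = 0.102). Of the 297 lower genes apart in L3mbtl2 knockout, 210 lay on shifted chromosomes. Among them were Coil, the coilin gene of chromosome 11, with 20.8 to 21.6 FPKM in wild type, 14.8 to 18.6 in the 5 other knockout libraries and 58.7 and 58.3 in L3mbtl2 knockout, Rab1a of the same chromosome, and the Y-linked Uba1y. Cxcl2, a chemokine gene, was at 1.42 to 1.85 FPKM in wild type, 0.161 to 1.12 in the 5 other knockout libraries and 6.58 and 6.15 in L3mbtl2 knockout, where the macrophage markers were also highest, and the part of those markers in this value was not tested.

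In the Mga knockout the failures with the smallest p on the higher side were C1qa, C1qc and Pf4, all macrophage markers fixed in that list, and Capn11. C1qa, a complement gene, was at 2.37, 2.41 and 2.85 FPKM in wild type, 10.6 and 11.4 in L3mbtl2 knockout, 6.13 and 6.16 in Pcgf6 knockout, and at most 0.0775 in the libraries labelled Mga knockout. C1qc and Pf4 were each listed at 0 in 2 of those 3 libraries. These follow the summed macrophage markers given above, and the part of those markers was not tested. Capn11, a testis calpain gene, was at 1.90 to 2.25 FPKM in wild type, 3.64 to 4.82 in the 4 other knockout libraries and 0.0744 to 0.168 in the libraries labelled Mga knockout. On the lower side were Bcat1, the branched-chain aminotransferase gene, with 16.7 to 17.2 FPKM in wild type, 6.44 to 14.9 in L3mbtl2 and Pcgf6 knockout and 30.9 to 38.6 in the libraries labelled Mga knockout, Mtrr, a methionine synthase reductase gene, Ppp2r2c, a phosphatase subunit gene, and Hmga1b, whose reads may belong to its near-identical copy Hmga1.

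In the Pcgf6 knockout the named failing genes were at, near or past the wild type level. Zbtb44, a zinc finger gene, was at 7.87 to 8.45 FPKM in wild type, 15.6 to 17.2 in the libraries labelled Mga knockout, 27.8 and 27.8 in L3mbtl2-/- cells and 8.64 and 8.16 in Pcgf6-/- cells (-1.34 ± 0.08 against the 2 others, log2, SE, limma adjusted p = 5.12e-05). Mme, the neprilysin gene, was at 2.57 to 2.78 FPKM in wild type, 7.76 to 12.8 in the other 2 genotypes and 2.93 and 2.73 in Pcgf6 knockout. Kdm5b, an H3K4 demethylase gene, was at 30.2 to 32.1 FPKM in wild type, 35.7 to 41.3 in the libraries labelled Mga knockout, 80.1 and 78.6 in L3mbtl2-/- cells, and 28.0 and 27.2 in Pcgf6-/- cells. Ddx19b, an RNA helicase gene, showed the same order.

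Among genes lower in the 2 others, Pianp was at 9.45 to 9.95 FPKM in wild type, 3.14 to 4.26 in the libraries labelled Mga knockout, 0.975 and 1.05 in L3mbtl2-/- cells and 11.5 and 12.1 in Pcgf6-/- cells (2.54 ± 0.12 against the 2 others, log2, SE, limma adjusted p = 2.64e-05). Usp39, a splicing factor gene, was at 40.5 to 42.4 FPKM in wild type, 19.3 to 23.0 in the other 2 genotypes and 47.8 and 49.0 in Pcgf6 knockout. Phb, the prohibitin gene, was at 145 to 153 FPKM in wild type, 72.8 to 112 in the other 2 genotypes and 189 and 189 in Pcgf6 knockout, and Pigyl followed the same pattern.

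**Figure D4:**
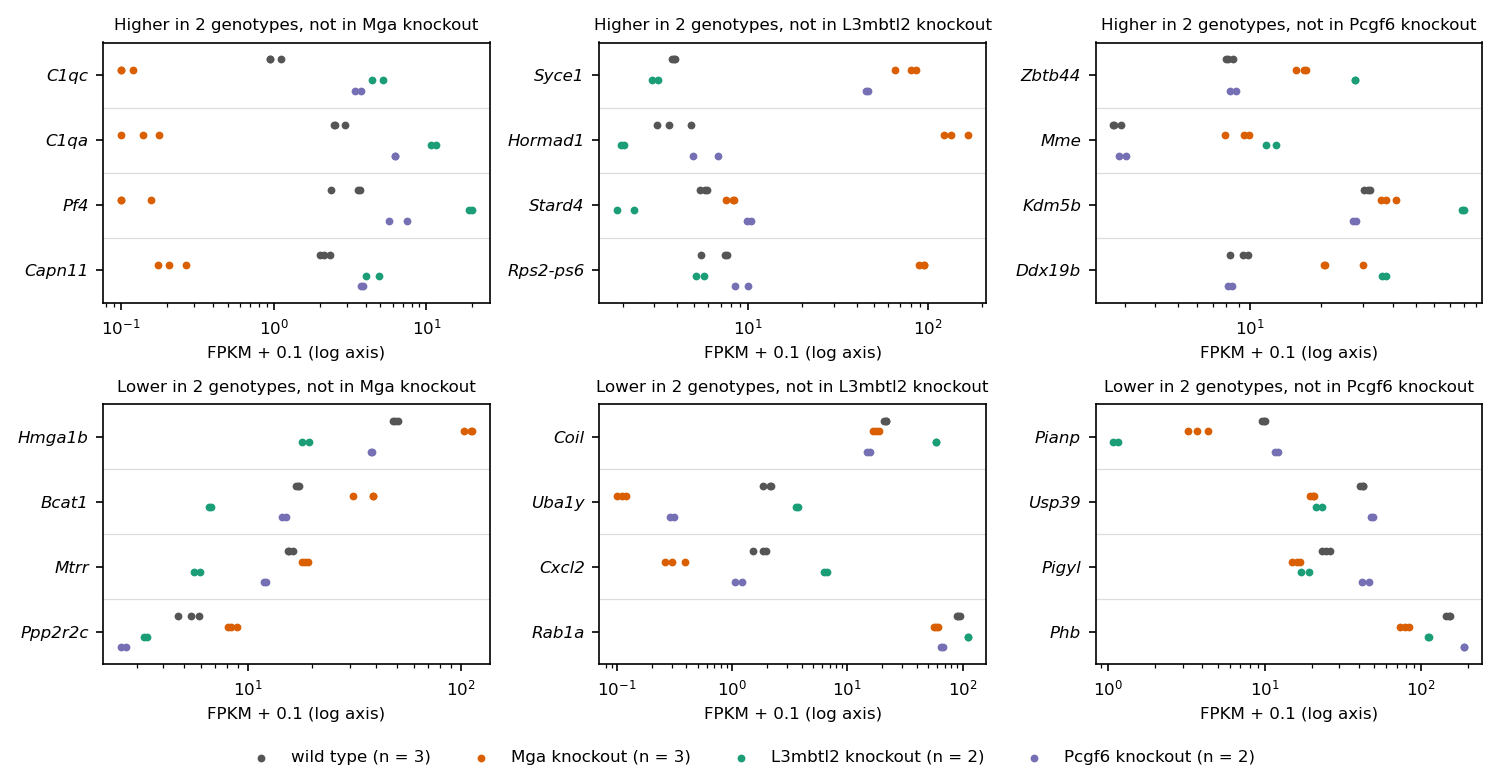
Level in each library (FPKM + 0.1, log axis) of the 4 genes per genotype and direction with the smallest p of the difference, with 1 point per library. In each row the 2 other genotypes lie wholly on one side of the grey wild type points, and at least 1 library of the genotype named in the title does not.

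The common response was uneven along the chromosomes. On chromosome 16, 127 of 476 tested genes (26.7%) were below wild type in all 7 libraries, and on chromosome 11, 273 of 1352 (20.2%), beside 10.2% over all chromosomes. On chromosome 1, 182 of 904 tested genes (20.1%) were above, beside 13.1%. The median on chromosome 16 was -0.29 to -0.10 (log2) in the Mga and Pcgf6 knockout libraries and 0.00 and 0.03 in the L3mbtl2 knockout libraries. Of all tested genes 31.9% lay on shifted chromosomes, and of the wide-gap genes 29.5% of the higher and 34.5% of the lower ones, so 98 and 36 wide-gap genes remained without them.

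**Figure D5:**
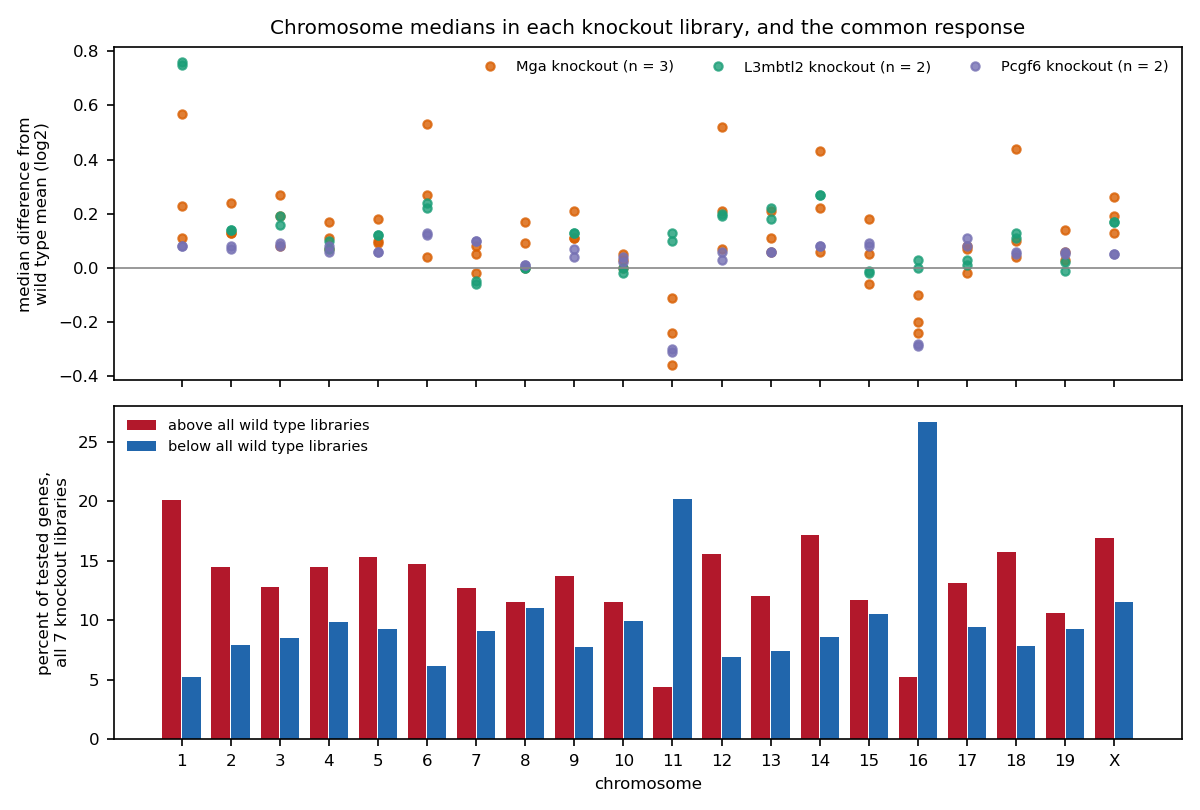
Top, median difference from the wild type mean (log2) over the tested genes of each chromosome in each knockout library, with 1 point per library. Bottom, percent of tested genes above (red) or below (blue) all wild type libraries in all 7 knockout libraries, where chromosomes 11 and 16 stand out below with 20.2% and 26.7% and chromosome 1 above with 20.1%.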

How the data were processed

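Total RNA of 10 libraries was sequenced after preparation with a NEBNext Ultra kit, per the labels' protocols, a kit that does not mark strand. The authors deposited values per gene, taken here as FPKM, and the sources used here do not give the scaling. The values were made with Bowtie2 2.2.3, TopHat2 2.0.12 and HTSeq 0.6.0 on GRCm38, per the submitters' processing notes. Each file lists 30460 genes, of which 30250 were given a symbol by GENCODE M21. At 77.9% of genes above 0 the values come out whole, to 0.005 reads, at the annotated length, which gives depths of 19400000 to 26700000 reads, so that 1 read in a 2 kb gene is worth about 0.0187 to 0.0258 FPKM.

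From these values limma 3.58.1 (R 4.3.3, trended empirical Bayes, checked on simulated data) was run on log2(FPKM + 0.1) for the 15731 genes that reached 0.5 FPKM in 2 or more libraries. One fit of 4 groups gave the equal-weight mean of the 3 knockout groups minus wild type, the F test among knockouts, and each knockout against the 2 others. Standard errors are limma's, and p-values were adjusted by Benjamini-Hochberg over all tested genes (threshold 0.05). Folds on this scale understate changes of genes near 0. Chromosomes were called shifted where the median of a knockout library lay over 0.2 (log2) from its median over all tested genes (chromosomes 1, 6, 11, 12, 14, 16 and 18, with Y and unplaced genes added).

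Named genes are the 3 targeted genes, the 12 widest gaps per direction among called genes with a mean of at least 1 FPKM and no predicted name, up to 4 members per list by pooled p, up to 4 genes per genotype and direction apart, and the 6 common genes with the smallest F p. A gene that this rule selects is not reported here. The members and the 29 lists were chosen with earlier results of these data known.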

Additional observations from a re-analysis of the deposited data

Results flagged for a closer look

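Among the 7 knockout libraries, 1 library stood far from the others at 5 named genes, by its gap to the nearest other library relative to the whole range; chance gives such a flag in about 1 of 20 groups. They were Xlr3c in the library labelled Mga knockout replicate 2 (46.3 FPKM), Mageb4 and Ctcfl in its replicate 3 (20.9 and 31.6 FPKM), and Klf4 and Pfkp again in replicate 2 of that label (174 and 46.4 FPKM). All 5 were highest values in libraries labelled Mga knockout. Many named genes were read by this rule, so chance alone can give several such flags. The 7 libraries also mix genotypes and are not 1 group of replicates.

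A genotype differed from the mean of the 2 other knockouts, by limma's contrast between them, at each gene below (log2 differences). Mga knockout was lower at C1qc (-5.27), C1qa (-5.94), Pf4 (-6.59) and Capn11 (-4.27). It was higher at Hmga1b (2.04), Bcat1 (1.86), Mtrr (1.15), Ppp2r2c (1.52), Tuba3a (3.76) and Slc25a31 (5.41). L3mbtl2 knockout was lower at Syce1 (-4.29), Hormad1 (-3.84), Stard4 (-2.11) and Rps2-ps6 (-2.44). It was higher at Coil (1.83), Uba1y (4.33), Cxcl2 (3.44), Rab1a (0.83) and Mreg (1.51). Pcgf6 knockout was lower at Zbtb44 (-1.34), Mme (-1.85), Kdm5b (-0.99), Ddx19b (-1.83), Ddx4 (-1.91) and Zcwpw1 (-3.30), and higher at Pianp (2.54), Usp39 (1.20), Pigyl (1.37), Phb (1.02) and Klhl13 (2.90).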

How the results depend on the processing

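The pooled contrast was refitted with other pseudocounts, filters, scalings, weights and libraries. Counts that moved by over 1.5 times were 4967 higher and 3658 lower with weights per group, 841 and 628 in the 2-group fit, 5506 and 4167 without the Mga knockout libraries, 1779 and 1404 without the L3mbtl2 knockout libraries, and 2149 and 1399 without genes of shifted chromosomes, where fewer genes were tested. Leaving out 1 library in turn gave 1768 to 4874 higher and 1317 to 3344 lower genes. The common response had 3386 higher and 2548 lower genes without the Mga knockout libraries, 3406 higher without the Pcgf6 knockout libraries, 989 lower without genes of shifted chromosomes, and 139 and 55 with a gap of at least 1. Leaving out 1 library gave 2109 to 2542 and 1640 to 1850. Fewer libraries make that rule easier to meet.

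Genes of the common response called by the F test numbered 2408 with weights, 844 without genes of shifted chromosomes, and 700 to 2690 with 1 library left out. Genes apart in Mga knockout numbered 279 with weights, 394 without genes of shifted chromosomes, and 360 to 954 with 1 library left out. Those apart in L3mbtl2 knockout numbered 314 without genes of shifted chromosomes and 242 to 1122 with 1 library left out, and those apart in Pcgf6 knockout 403 to 2853. Where this left a genotype with 1 library, that library was assumed to vary like the other groups. Apart from the changes by construction named here, the cause was not tested. Replicate numbers share only a number: deviations of same-numbered libraries correlated between -0.0196 and 0.0349 over 13 pairs, none over 0.1. With the replicate block, 2846 genes were higher, 1917 lower, and 417 apart in Mga knockout. No named gene reversed under any alternative run. Depth limits genes near 0, where a wild type level can rest on few reads.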

Other observations

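Some genes that failed the common rule in 1 genotype did not merely reach the wild type range but lay past it on the other side in every library of that genotype. In Pcgf6 knockout this was so for 308 of the 1370 genes higher in the 2 other genotypes and 325 of the 817 lower ones, of which Usp39, Phb and Pianp are named examples. In L3mbtl2 knockout it was so for 177 of 495 and 212 of 389 genes, with Syce1 and Hormad1 among the first and Coil and Cxcl2 among the second. In Mga knockout it was so for 124 of 1443 and 78 of 973 genes.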
